A study of Mus musculus with 4 samples.

Results

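The genes described here are 33 listed genes of glycolysis and of the response to low oxygen, in mouse macrophages activated with or without immune complexes. A member was any listed gene named alone by the array's annotation for at least 1 probe set, the group of short probes that reports 1 transcript. Of the 33, 31 met this, with 69 probe sets, among 18194 genes so named on the array. Gpi1 and Eno1 were not analysed here. The members fall into 14 glycolytic enzymes, 5 genes of glycolytic transport and control, and 12 other hypoxia genes. The rule that picks them uses no signal, but the list was chosen with earlier results of these data known.

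The macrophages were grown from bone marrow for 7 days in medium holding 20% L-cell conditioned medium (it supplies M-CSF) and then kept overnight without it. Priming of all cells was overnight, at 100 U/ml of interferon-gamma, a step that the labels of the LPS group time at 16 h, and a wash with PBS followed. They were then stimulated for 2 h with LPS at 10 ng/ml, or with LPS at the same dose plus immune complexes, antibody bound to antigen. LPS, from the outer wall of bacteria, signals through TLR4, and immune complexes engage Fc gamma receptors. There were 2 arrays per group, with the replicate numbers 1 and 2 in their labels. The labels name no mouse strain and do not say whether replicates were separate cultures or animals, so p-values measure the spread between these arrays, which may be technical. No unstimulated or unprimed macrophages were analysed here, so the values compare the stimulations with each other and not with resting cells.

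Glycolysis converts glucose to pyruvate in the cytosol, and lactate dehydrogenase turns pyruvate into lactate. Macrophages given LPS are known to shift toward this route. The transcription factor HIF-1alpha, encoded by Hif1a, is marked for destruction by oxygen-dependent prolyl hydroxylases, and when it is stable it binds the sequence ACGTG or GCGTG near its targets. These targets include most glycolytic enzymes and genes of vessel growth, mitophagy, collagen modification and growth arrest.

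The stretches before 5 member genes show where the short HIF core lies in members whose signals are followed below. Each is the 250 bases before the RefSeq start in GRCm38.p6, read 5′ to 3′ on the gene's strand, with ACGTG on either strand in capitals. Hk2 is shown as the hexokinase whose groups did not overlap under any of the 3 scalings tried, and the other 4 as members that differed alike between the replicates of both groups. All 5 hold ACGTG, but not every member that differed in this way does. Tpi1, Higd1a, Aldoc, Pfkl and Pdk1 also read higher on both replicate 1 arrays than on both replicate 2 arrays, and their windows hold none. A link between the motif and the replicate difference was not tested.
Hk2, chr6:82774455-82774704, minus strand: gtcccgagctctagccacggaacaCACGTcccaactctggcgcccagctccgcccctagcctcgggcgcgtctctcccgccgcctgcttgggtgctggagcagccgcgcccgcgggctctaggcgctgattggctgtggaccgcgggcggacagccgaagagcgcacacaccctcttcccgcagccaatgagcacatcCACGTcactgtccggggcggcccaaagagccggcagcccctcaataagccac
Slc2a1, chr4:119108495-119108744, plus strand: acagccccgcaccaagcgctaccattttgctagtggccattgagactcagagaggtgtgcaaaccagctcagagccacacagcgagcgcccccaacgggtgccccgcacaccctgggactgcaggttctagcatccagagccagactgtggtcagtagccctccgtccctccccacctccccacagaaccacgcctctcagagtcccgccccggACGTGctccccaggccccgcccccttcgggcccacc
Bnip3, chr7:138909507-138909756, minus strand: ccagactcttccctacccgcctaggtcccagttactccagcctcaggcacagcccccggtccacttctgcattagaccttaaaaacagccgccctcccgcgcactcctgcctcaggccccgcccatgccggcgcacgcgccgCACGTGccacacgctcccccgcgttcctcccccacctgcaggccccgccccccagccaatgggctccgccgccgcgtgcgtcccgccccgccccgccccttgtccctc
P4ha1, chr10:59323046-59323295, plus strand: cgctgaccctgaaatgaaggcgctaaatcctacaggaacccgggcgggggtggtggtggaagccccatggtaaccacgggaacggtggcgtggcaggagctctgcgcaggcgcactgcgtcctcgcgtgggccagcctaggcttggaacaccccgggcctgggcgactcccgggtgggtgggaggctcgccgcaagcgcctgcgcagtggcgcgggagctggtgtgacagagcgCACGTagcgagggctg
Pgk1, chrX:106186850-106187099, plus strand: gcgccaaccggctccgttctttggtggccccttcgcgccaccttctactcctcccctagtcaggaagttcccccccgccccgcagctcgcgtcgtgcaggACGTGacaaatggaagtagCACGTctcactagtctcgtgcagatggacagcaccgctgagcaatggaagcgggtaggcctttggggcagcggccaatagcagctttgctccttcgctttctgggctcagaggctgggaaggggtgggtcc
In Bnip3 the match is the palindrome CACGTG, also the core of the E-box, which reads ACGTG on both strands and counts as 2. Of 31 members 30 had such a window, 44 windows in all since some genes have several starts, and Ndrg1 had none. ACGTG on either strand was in 24 of the 44 (54.5%), against 16.6% of all 32851 RefSeq windows of that length. By gene it was in 20 of the 30, against 4998 of all 27025 genes with a window. By role it was in 10 of 23 windows of glycolytic enzymes, 4 of 7 of transport and control, and 10 of 14 of the other hypoxia genes. GCGTG was in 50.0% of the members' windows and 28.2% of all. Both words hold CG, and the median GC content was 61.0% in the members' windows and 52.4% in all. Windows of a gene can overlap, as some of Aldoa do, so a site can count more than once. The members were listed as genes of glycolysis and the low oxygen response, so the shares describe that choice. A match describes letters and is not a binding site.

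Trimmed mean signals of the arrays, 499.1 to 499.8, were alike, but their low ends and medians were not. The 5th percentile was 28.1 on LPS plus immune complexes replicate 1 and 3.3 to 7.9 on the other 3 arrays. The median was 155.4 on that array and 68.2 to 88.3 on the other 3. All 9 matched macrophage markers, among them Adgre1, Csf1r and Cd68, passed the filter on low signals. Their summed signal lay between 133930 and 190340. Among markers of other cells, S100a8 of neutrophils was the brightest, between 504.7 and 1137.6, and no listed marker of T cells, B cells, mast cells, fibroblasts, endothelium or red cells exceeded 359.4 on any array. In RNA from whole cultures, fewer cells of a type and less RNA per cell cannot be told apart.

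None of the 30 tested members passed the limma test at an adjusted p of 0.05 in either direction. Over all 12891 tested genes, 8 were called higher with immune complexes (0.0621%) and none lower (0.0%). At an unadjusted limma p under 0.05, 1 member, Ndrg1, was higher and none lower, against 1.99% and 1.14% of all genes. The members' log2 fold changes ran from -0.57 to 1.75, and 23 of 30 were smaller than 0.5 in size. Gapdh, the other member, is read only by control probe sets, which were not tested. Egln3 and Ankrd37 passed the filter on low signals only through their replicate 1 arrays, with means near the filter of 69.6. Their LPS means, 51.75 and 58.95, lay below it, so the direction of their log2 fold changes was fixed by the filter.

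**Figure D1:**
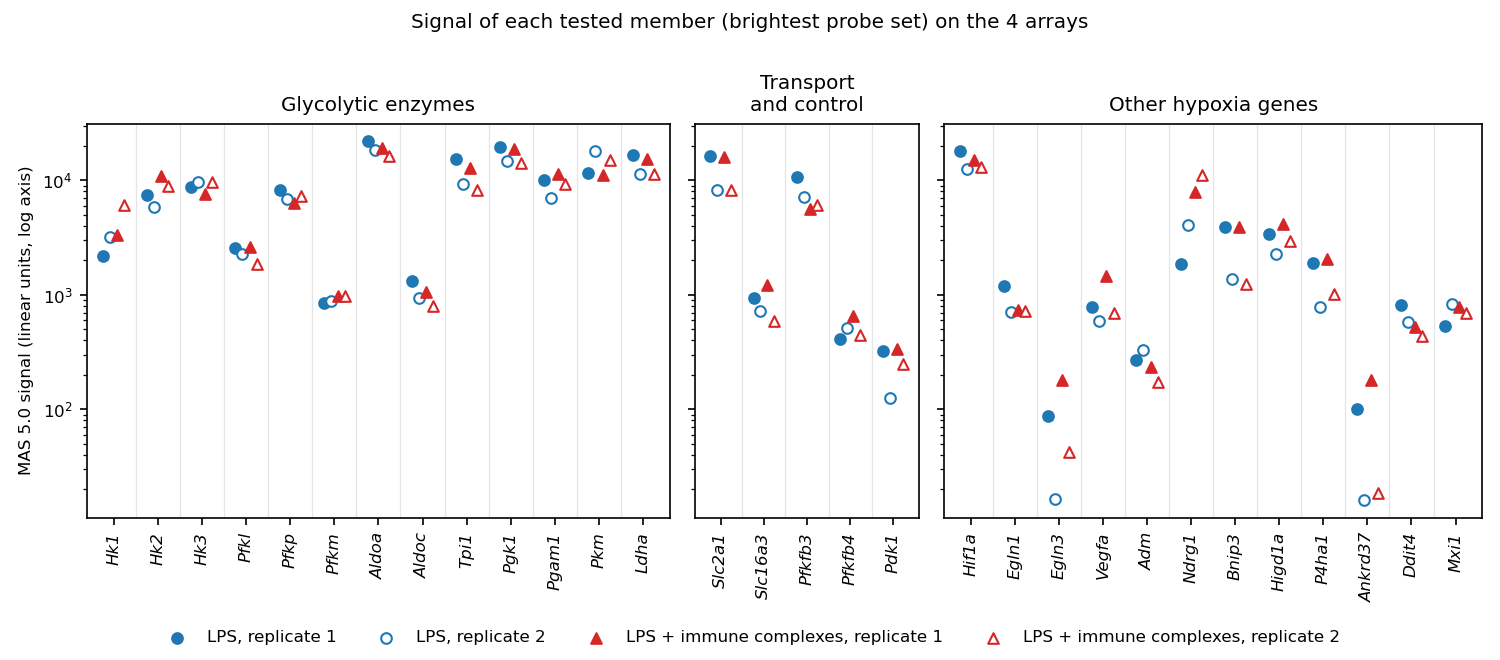
Signal of each of the 30 tested members on the 4 arrays, by its brightest probe set, on a log axis. Filled marks are replicate 1 and open marks replicate 2, circles are LPS and triangles LPS plus immune complexes. Ndrg1 has both triangles above both circles, while for Bnip3 and Slc2a1 the filled marks lie above the open ones in both groups. Heights of different genes cannot be compared, since each has its own probes.

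Ndrg1, a gene induced by hypoxia and by growth arrest, differed most between the stimulations. Its brightest probe set read 1874.8 and 4036.3 under LPS alone and 7840.7 and 11060.5 with immune complexes added, for replicates 1 and 2. Both arrays with immune complexes lay above both LPS arrays, and the groups did not overlap. The means were 2955.6 ± 1528 and 9450.6 ± 2277 (SD, n = 2 arrays per group). The log2 fold change, on the scale of log2(signal + 32) used throughout, was 1.75 ± 0.38 (SE) with a limma adjusted p of 0.232, so Ndrg1 was not called.

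The other 4 Ndrg1 probe sets gave the same order. The second brightest read 2124.3 and 3534.2 under LPS alone and 7241.4 and 10044 with immune complexes added. The third read 881.8 and 1843.7 against 3768.9 and 5667.2. In these 3 replicate 2 was the higher in both groups. The fourth read 719.3 and 635 against 2516.5 and 3040, and the fifth 561.2 and 436.4 against 1612.1 and 1518.8. In these 2 the LPS replicates lay close together. Log2 fold changes over the 5 Ndrg1 probe sets ran from 1.60 to 1.98 and limma adjusted p from 0.101 to 0.307. The IDs of 3 of them end in _s_at or _x_at, which mark probes that can bind several transcripts, and the probe sets of a gene are not independent of each other. Without LPS replicate 2, the LPS array with the higher Ndrg1 reading, the log2 fold change was 2.29 with a limma adjusted p of 2.63e-05. It was 1.20 (0.387) without LPS replicate 1, 1.99 (0.954) without LPS plus immune complexes replicate 1 and 1.50 (0.254) without LPS plus immune complexes replicate 2, with adjusted p in parentheses. Without a filter Ndrg1 passed at a limma adjusted p of 0.0219, a setting that called 68 of all probe sets higher and 21 lower. With the mean over its probe sets it passed at 0.0462, and calls over all genes were not counted there. Without a variance trend its limma adjusted p was 1.

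**Figure D2:**
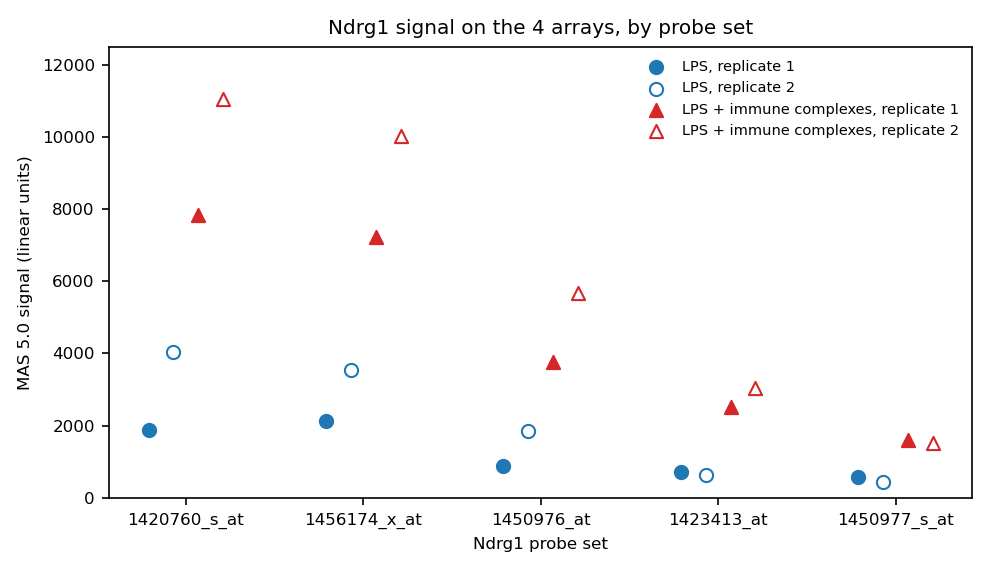
MAS 5.0 signal of the 5 Ndrg1 probe sets on a linear axis from 0, 1 mark per array. In every probe set both arrays with immune complexes (triangles) lie above both LPS arrays (circles). The brightest reads 7840.7 and 11060.5 against 1874.8 and 4036.3.

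Among the glycolytic enzymes, Hk1 and Hk2, hexokinases, which trap glucose as glucose 6-phosphate, had the largest values by their brightest probe sets. Hk2, the inducible isoform, read 7440.3 and 5819.2 under LPS alone and 10838.1 and 8989.7 with immune complexes added. Both arrays with immune complexes were above both LPS arrays, the lower at 8989.7 against the higher LPS reading of 7440.3. The ratio of same-numbered arrays, which the labels do not say are paired, was 1.46 for number 1 and 1.54 for number 2. Its log2 fold change was 0.58 ± 0.28 with a limma adjusted p of 1. Hk1, the isoform found in most tissues, read 2165.2 and 3221.8 under LPS alone and 3322.1 and 6116.6 with immune complexes added. The lower reading with immune complexes was only just above the higher LPS reading. Hk1 had a log2 fold change of 0.76 ± 0.38 and a limma adjusted p of 1. Its dimmer probe set read 1029.6 and 1301.2 against 1252.9 and 2613.1, and there the groups overlapped. Hk3, the third hexokinase, read 8718.7 and 9627.9 under LPS alone and 7578.3 and 9705 with immune complexes added, a log2 fold change of -0.09 ± 0.28. Its groups overlapped too, while its dimmer probe set had both readings with immune complexes above both LPS readings, with a log2 fold change of 0.23 ± 0.27.

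The enzymes after hexokinase lay close to 0. Phosphofructokinase, which commits sugar to glycolysis, is encoded by Pfkl, Pfkp and Pfkm, with log2 fold changes of -0.13 ± 0.35, -0.14 ± 0.28 and 0.17 ± 0.37. Pfkm read 846.3 and 883.3 under LPS alone and 976.6 and 972.2 with immune complexes added. Its groups did not overlap, but the difference was 1.13-fold in the means and turned to -0.03 when arrays were centred on their medians. The aldolases Aldoa and Aldoc had -0.19 ± 0.24 and -0.25 ± 0.39, the isomerase Tpi1 -0.22 ± 0.32, and the kinase Pgk1, the first to yield ATP, -0.05 ± 0.26. The mutase Pgam1 had 0.30 ± 0.29, pyruvate kinase (Pkm) -0.16 ± 0.29 and lactate dehydrogenase A (Ldha) -0.06 ± 0.29. Each of these 10 genes had a limma adjusted p of 1.

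Other probe sets of these enzymes varied around the same values. The 5 Aldoa probe sets ran from -0.31 to 0.22, the 3 of Tpi1 from -0.24 to -0.22, the 3 of Pgk1 from -0.13 to -0.05 and the 3 of Pfkl from -0.13 to 0.11. The 3 Pfkp probe sets ran wider, from -0.31 to 0.56, and the groups did not overlap in the dimmest. A second Aldoc probe set lay below the filter, with no reading above 99.7. Gapdh, the dehydrogenase between aldolase and Pgk1, is read by 3 control probe sets placed along its transcript. The one at the 3' end read 24034.7 and 22794.9 under LPS alone and 20023.3 and 19159.4 with immune complexes added, and those groups did not overlap. The one at the 5' end read 31318.3 and 20418.7 against 25709.1 and 22417.7, where they did.

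As a group the 13 tested enzymes had 4 log2 fold changes above 0 and 9 below, with a median of -0.09 and a mean of 0.04, against a median of 0.05 over all tested genes. The direction of so small a shift depended on scaling: with quantile normalization 8 were above 0 and the median was 0.04, and with median centring 3 were and it was -0.29. Median centring moved the median of all genes too, from 0.05 to -0.15. Without LPS replicate 1 or LPS plus immune complexes replicate 2 the enzymes' median was 0.14 or 0.13, and without LPS replicate 2 or LPS plus immune complexes replicate 1 it was -0.20 or -0.03.

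**Figure D3:**
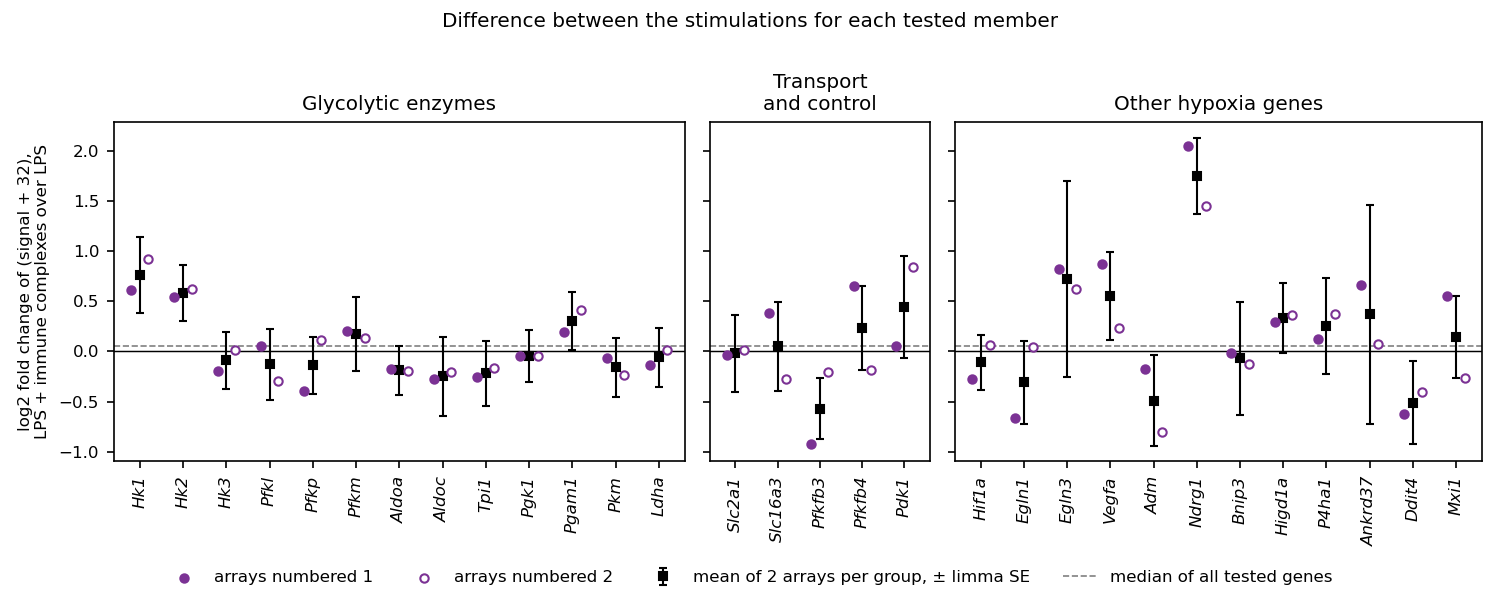
Log2 fold change of LPS plus immune complexes over LPS for the 30 tested members. Squares are the fit with limma's SE, dots the difference between the arrays numbered 1 (filled) and those numbered 2 (open), and the dashed line the median of all tested genes, 0.05. Ndrg1 at 1.75 stands above the others, and Pfkfb3 at -0.57 is the lowest.

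Of the genes that carry sugar and set the flux, Pfkfb3 had the largest value. It encodes the kinase that makes fructose 2,6-bisphosphate, the activator of phosphofructokinase. Pfkfb3 read 10589.2 and 7122 under LPS alone and 5571 and 6138.7 with immune complexes added. Both readings with immune complexes were below both LPS readings, with a ratio of 0.526 in replicate 1 and 0.862 in replicate 2. The log2 fold change was -0.57 ± 0.30 with a limma adjusted p of 1, and -0.28 without LPS replicate 1. A dimmer Pfkfb3 probe set read 1479 and 251 under LPS alone and 583.9 and 328.3 with immune complexes added, so the groups overlapped there.

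The glucose transporter Slc2a1 (GLUT1) had nearly the same level in both stimulations. It read 16397.3 and 8235.5 under LPS alone and 15902.5 and 8289.9 with immune complexes added, a log2 fold change of -0.02 ± 0.38. Within replicate 1 the ratio was 0.97 and within replicate 2 it was 1.01, while replicate 1 was 1.99 and 1.92 times replicate 2 within the groups. The other 2 Slc2a1 probe sets had 0.00 ± 0.45 and 0.04 ± 0.40. The 95% interval of the Slc2a1 difference, from the limma fit, ran from -0.84 to 0.81 on the log2 scale.

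The lactate exporter Slc16a3 (MCT4) had 0.05 ± 0.44, Pfkfb4, a kinase and phosphatase like Pfkfb3, 0.23 ± 0.42, and Pdk1, which inhibits pyruvate dehydrogenase, 0.44 ± 0.51. Over the 5 genes the median was 0.05, from -0.45 without LPS plus immune complexes replicate 1 to 0.50 without LPS plus immune complexes replicate 2, and -0.14 with median centring.

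The oxygen sensing genes had differences within their errors by their brightest probe sets. Hif1a read 18162.3 and 12451.9 under LPS alone and 14949 and 12961.8 with immune complexes added, a log2 fold change of -0.11 ± 0.27. A second Hif1a probe set read 4855.9 and 3484.3 against 2855.5 and 3278.2, where the groups did not overlap, with a log2 fold change of -0.42 ± 0.33. The third read 2593.4 and 147.1 against 1979.2 and 227.4, so replicate 1 was 17.6 and 8.7 times replicate 2 while the stimulations overlapped. The prolyl hydroxylases Egln1 and Egln3 had -0.31 ± 0.41 and 0.72 ± 0.98, and the dimmer Egln1 probe set -0.50 ± 0.46. Egln3 was dim, with 87.1 and 16.4 against 178.9 and 42.3.

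Of the secreted products, Vegfa, the growth factor of vessels, read 785.3 and 588.4 under LPS alone and 1463 and 697.2 with immune complexes added. One reading with immune complexes fell between the LPS readings, and the log2 fold change was 0.55 ± 0.44 with a limma adjusted p of 1. Its dimmer probe set had 0.82 ± 0.58. Adm, the vasodilator peptide adrenomedullin, lay on the lower side with immune complexes in both of its probe sets. The brighter read 270.5 and 328 against 235.6 and 174.3, a log2 fold change of -0.49 ± 0.45. The dimmer read 227.1 and 153.9 against 25.3 and 40.3, a log2 fold change of -1.77 ± 0.74 with a limma adjusted p of 1. The Adm groups did not overlap in either probe set, but the sizes differed, and readings of 25.3 and 40.3 lie where signals are the least certain. The dimmer had a mean of 32.8 with immune complexes, below the filter, which it passed only through the LPS group. The direction of its value was thus fixed by the filter.

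Ddit4 (REDD1), an inhibitor of mTORC1, read 819.4 and 583.6 under LPS alone and 523.2 and 435.8 with immune complexes added. The groups did not overlap, with a log2 fold change of -0.51 ± 0.41 and a limma adjusted p of 1. The mitophagy receptor Bnip3 had -0.07 ± 0.56, Higd1a, a protein of the mitochondrial respiratory chain, 0.33 ± 0.35, and P4ha1, a prolyl hydroxylase of collagen, 0.25 ± 0.48. The ankyrin repeat gene Ankrd37 had 0.37 ± 1.09 and Mxi1, an antagonist of Myc, 0.14 ± 0.41. A dimmer Mxi1 probe set read 96.1 and 23.6 against 195 and 133.7, a log2 fold change of 1.20 ± 0.74, which differs by over 1 from that of the brighter one. The LPS mean of this dimmer probe set, 59.85, lay below the filter, so the direction of its value was fixed by the filter.

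The 12 other hypoxia genes had 7 log2 fold changes above 0 and 5 below. Egln3 and Ankrd37, whose direction was fixed by the filter, are among the 7. The median was 0.19, and 0.10 and -0.01 with quantile normalization and median centring. It was 0.03 with the 60th percentile filter, which left out Egln3 and Ankrd37. That median turned on the array left out: it was 0.64 without LPS replicate 1, -0.37 without LPS replicate 2, -0.23 without LPS plus immune complexes replicate 1 and 0.66 without LPS plus immune complexes replicate 2. Over all 30 members the groups did not overlap for 4 on the higher side (Hk1, Hk2, Pfkm and Ndrg1) and 3 on the lower (Pfkfb3, Adm and Ddit4), and overlapped for 23. Over all tested genes the shares were 13.2% higher and 13.1% lower. With median centring 2 were on the higher side, Hk2 and Ndrg1, and 7 on the lower, against 8.41% and 17.9% of all genes. With 1 array left out a group has a single reading, and more genes of any kind do not overlap. Without LPS replicate 1 the members on the higher and lower side were 15 and 5, against 29.1% and 32.3% of all genes. Without LPS replicate 2 they were 6 and 13, against 30.9% and 24.9%. Without LPS plus immune complexes replicate 1 they were 5 and 10, against 25.1% and 34.2%, and without replicate 2 of that group 14 and 6, against 44.0% and 32.1%. The side with more members thus changed with the array left out.

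More members separated by replicate number than by stimulation, and the same held over all tested genes. For 18 of the 30, both arrays labelled replicate 1 read above both labelled replicate 2, and for 2, Hk3 and Pkm, both read below. Over all tested genes the shares were 26.9% and 24.8% by number, against 13.2% and 13.1% by stimulation. The 18 were 7 of 13 enzymes, 3 of 5 genes of transport and control, and 8 of 12 other hypoxia genes. Egln3 and Ankrd37 are among them, and since they passed the filter only through replicate 1, their direction by number was fixed by the filter. Without them the counts were 16 of 28 members and 6 of 10 other hypoxia genes. The labels do not say what the number stands for, and this is a description with no test.

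Bnip3 and P4ha1, known targets of HIF-1alpha, were among the 16. Bnip3 read 3928.2 and 3884 on the replicate 1 arrays, with LPS and with immune complexes, and 1367.4 and 1247.8 on the replicate 2 arrays. Its replicates thus differed 2.87-fold and 3.11-fold, while the ratio of the stimulations was 0.989 and 0.913. P4ha1 read 1892.8 and 2061.6 on the replicate 1 arrays and 785.5 and 1024.3 on the replicate 2 arrays. Its dimmer probe set read 1035.9 and 1062.4 against 151.8 and 273.7. Ankrd37, whose direction the filter fixed, read 101.6 and 179.8 against 16.3 and 18.7. Pgk1 differed 1.33-fold and 1.32-fold, Ldha 1.49-fold and 1.34-fold, and Tpi1 1.65-fold and 1.56-fold. By their brightest probe sets Ndrg1 and Hk1 ran the other way by number, with replicate 2 above replicate 1 within each group. The dimmest Ndrg1 probe set had replicate 1 the higher in both groups.

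The median difference of replicate 1 over replicate 2 on the log2 scale was 0.44 among LPS arrays and 0.39 among those with immune complexes, over the 30 members. Over all tested genes it was -0.06 and 0.11. By role these medians were 0.27 and 0.27 for the enzymes, 0.57 and 0.54 for transport and control, and 0.55 and 0.44 for the other hypoxia genes. Without Egln3 and Ankrd37 they were 0.40 and 0.34 over 28 members, and 0.51 and 0.31 over 10 other hypoxia genes. Of the 9 macrophage markers, 2 (Itgam and Mertk) read higher on both replicate 1 arrays than on both replicate 2 arrays, 3 (Cd68, Fcgr1 and Mrc1) read lower, and 4 overlapped. Mrc1 read 864.1 and 846.4 on the replicate 1 arrays and 3660.2 and 3772.4 on the replicate 2 arrays, and Mertk 8525.9 and 3476.3 against 3206 and 1857.9. Gapdh control probe sets, whose 3' to 5' ratio reflects RNA integrity, gave ratios of 0.767 and 0.779 on the replicate 1 arrays and 1.12 and 0.855 on the replicate 2 arrays. The part of these in the members' differences was not tested.

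**Figure D4:**
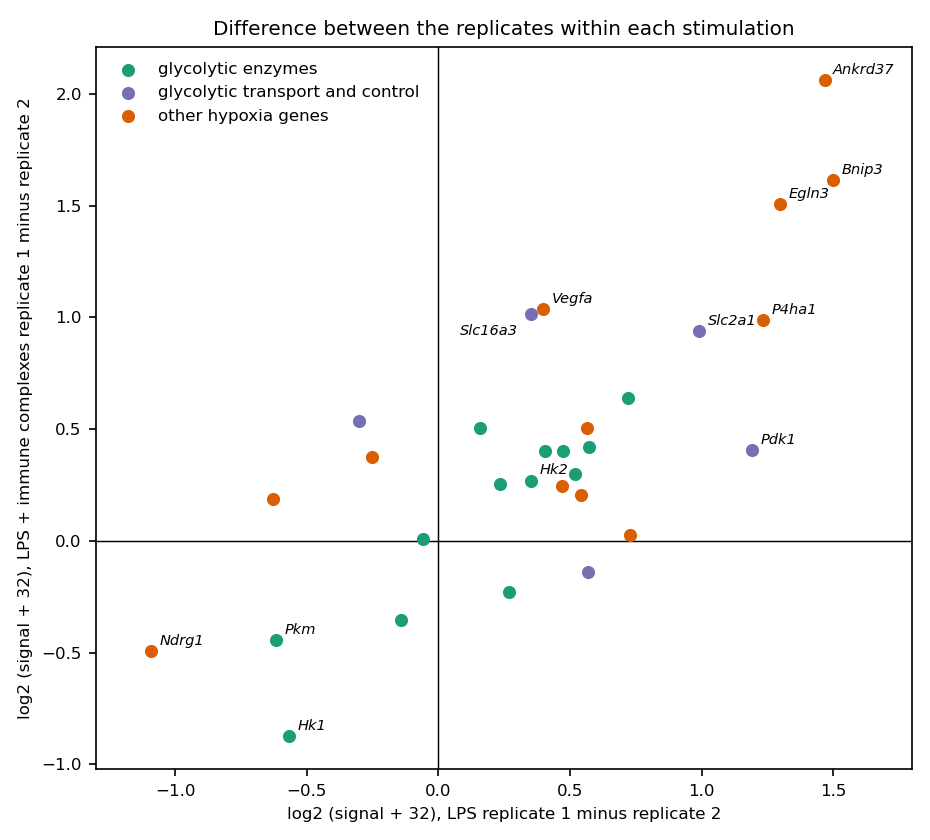
Difference between replicate 1 and replicate 2 on the log2(signal + 32) scale for the 30 tested members, within LPS (x axis) and within LPS plus immune complexes (y axis), coloured by role. Bnip3, P4ha1 and Slc2a1 lie at the upper right, higher in replicate 1 in both groups, as do Egln3 and Ankrd37, which passed the filter only through replicate 1, and Ndrg1, Hk1 and Pkm at the lower left. The axes share no array.

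Related genes outside the members were read from lists of the same pathways, and none passed the limma test in either direction. Of 12 tested isoenzymes and further transporters 9 were above 0, with a median of 0.21. Among them Pfkfb2, a sister of Pfkfb3, read 16.7 and 31.2 under LPS alone and 401.7 and 88.2 with immune complexes added, and the lactate carrier Slc16a1 (MCT1) 1142.4 and 514.9 against 3169.4 and 1087.4. Eno2, the neuronal enolase, read 353.9 and 887.6 against 994 and 1308.4. Their log2 fold changes were 2.04 ± 0.86, 1.24 ± 0.53 and 0.98 ± 0.46. The Slc16a1 groups overlapped, and both of its replicate 1 readings lay above both replicate 2 readings. Both LPS readings of Pfkfb2 lay below the filter of 69.6, which it passed only through the immune complex group, so the direction of its value was fixed by the filter and it is given as a description. Of the 9 above 0, Pfkfb2, Slc16a1, Bpgm, Gapdhs, Ldhb and Pklr read highest on LPS plus immune complexes replicate 1, the array with the raised median. Eno2, Slc2a3 and Slc16a7 did not. The related lists were not read under the other scalings.

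Of the 10 tested genes of pyruvate dehydrogenase and its kinases 5 were above 0 (median -0.02), led by the phosphatase Pdp2 at 0.80 ± 0.57. The 7 of the pentose phosphate pathway had a median of -0.03, with the lactonase Pgls at -0.43 ± 0.35. Of the 15 HIF factors and their regulators 5 were above 0 (median -0.12), with Arnt2, whose LPS mean of 57.1 lay below the filter, at 1.02 ± 0.75 and the coactivator Ep300 at -0.56 ± 0.38. The 25 further hypoxia targets had 13 above 0 and a median of 0.02. By number, both replicate 1 arrays read above both replicate 2 arrays for 13 of these 25 and below for 1. The same counts were 5 and 1 of the 12 isoenzymes and transporters, 5 and 1 of the 10 pyruvate dehydrogenase genes, 1 and 2 of the 7 pentose phosphate genes, and 2 and 5 of the 15 HIF factors and regulators, against 26.9% and 24.8% of all genes. Among the 13, Gys1 (22.4 and 24.7) and Car12 (51.4 and 55.7) had both replicate 2 readings below the filter. So did Rbx1 (8.3 and 64.7) among the HIF regulators. The direction of these genes by number was fixed by the filter. Among the further targets the largest differences between the stimulations were Bhlhe40, a basic helix-loop-helix repressor, and Hmox1, heme oxygenase. Bhlhe40 read 532.4 and 624.5 under LPS alone and 3383.9 and 1775.8 with immune complexes added, a log2 fold change of 2.03 ± 0.41 with a limma adjusted p of 0.177. Hmox1 read 3195.5 and 1426 against 13583.9 and 5173.6, a log2 fold change of 1.96 ± 0.48 with a limma adjusted p of 0.322. Like Ndrg1, both had groups that did not overlap.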

How the data were processed

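Total RNA from 4 macrophage samples was hybridised to a mouse Affymetrix array. Deposited intensities are linear MAS 5.0 signals, 1 for each probe set on each array, per the submitters' processing notes. Replicates were not pooled, and detection calls and a genome build are not given in the sources used here. Signals were used as log2(signal + 32), which understates changes of dim probe sets. Without the 64 controls and probe sets with a mean under the 40th percentile (69.6), 27022 were tested by lmFit and eBayes of limma 3.58.1 under R 4.3.3, with a variance trend and without a block, two-sided, and called at a Benjamini-Hochberg adjusted p under 0.05 over all of them. Each gene is its brightest tested probe set. The number of arrays limits the precision. The method was tested on simulated data with independent noise and no difference by replicate number, so that test does not cover such a difference.

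Gene names come from GEO's annotation, where 34945 probe sets have 1 gene, 932 more than that and 9160 no gene, and 34741 of the first kind matched RefSeq's GRCm38.p6 gene table by gene ID. Every member is named, with the values of each array where groups did not overlap or the log2 fold change was at least 0.5, and up to 3 genes of each related list by size. Members, lists and motifs were chosen with earlier results of these data known. Alternatives were quantile normalization, median centring, pseudocounts of 1 and 100, no filter or the 60th percentile, no variance trend, the replicate number as a block, each array left out, averaging of the probe sets of each gene, and no _x_at or _s_at probe sets. A group left with 1 array took its spread from the other group.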

Additional observations from a re-analysis of the deposited data

How the results depend on the processing

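Of the 30 tested members 11 kept the sign of their log2 fold change under each of the 14 alternatives that could be computed for them, among them Ndrg1 (1.20 to 2.29), Hk1 (0.33 to 1.20), Hk2 (0.39 to 0.76), Pfkfb3 (-0.85 to -0.28) and Ddit4 (-0.74 to -0.27), and 19 changed it in at least 1. Members were called under 4 kinds of alternative. The count of other hypoxia genes called went from 0 to 1, in each case Ndrg1, without a filter, with the mean over probe sets and with the replicate block. Without a filter 68 of all probe sets were called higher and 21 lower. With the mean over probe sets the calls over all genes were not counted. With the replicate block, which called 1.74% of all genes higher and 1.3% lower, 2 enzymes, Hk1 and Hk2, were called too, with limma adjusted p of 0.0171 and 0.0426, and that of Ndrg1 was 4.72e-16. The labels do not say that numbers pair arrays. Same-numbered arrays deviated together from their group means with r of 0.382 across tested probe sets, and the blocked fit had infinite prior degrees of freedom, so each probe set was given the fitted trend's spread there. Leaving out arrays gave 0 to 1 called other hypoxia genes.

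Calls over all probe sets, 12 higher and 2 lower, were 0 and 0 with quantile normalization and without a variance trend, 33 and 14 with median centring, 20 higher with a pseudocount of 1, 6 and 0 with one of 100, 68 and 21 without a filter, 4 and 0 with the 60th percentile, 404 and 267 with the replicate block, and 0 to 77 and 0 to 32 when an array was left out. With median centring 2 members lay wholly above and 7 wholly below the LPS arrays, against 8.41% and 17.9% of all genes, and without 1 array 5 to 15 and 5 to 13, against 25.1% to 44.0% and 24.9% to 34.2%. Without 1 array the median log2 fold change ran from -0.20 to 0.14 for enzymes, -0.45 to 0.50 for transport and control and -0.37 to 0.66 for other hypoxia genes. The mean over probe sets gave no count over probe sets. The cause of these changes was not tested. Signal over background was not given, and the members' SE ran from 0.24 to 1.09.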
